A study of Mus musculus with 11 samples.

Results

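Triglyceride synthesis enzymes were followed in liver mRNA of mice fed a methionine- and choline-deficient (MCD) diet, through the 10 genes of the deposited table named Gpam, Gpat4, Agpat2, Agpat3, Lpin1, Lpin2, Lpin3, Dgat1, Dgat2 and Mogat1. All 10 were found, each as 1 of the 31280 genes in the table. They were chosen by name for their role in the pathway, with earlier results of these data known. Wild-type C57BL/6 mice were fed the diet for 8 weeks in both groups. The MCD group (5 libraries) received water by gavage, and the limonin group (6 libraries) was given 100 mg/kg limonin, a triterpenoid that makes citrus juice bitter, by the same route for 4 weeks. Sex and age are not given in the sources used here, and no group without the diet was analysed here. The diet withholds nutrients that the liver needs to make phosphatidylcholine and export fat, and it is used to produce a fatty liver in mice. Levels are in FPKM, which divide fragments by transcript length and library size, so they can be compared between genes. The number of fragments behind a value is not in the table, so the depth is unknown. The labels number the libraries as replicates and do not say whether each is a single mouse.

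Most triglyceride of the liver is built on glycerol-3-phosphate. A glycerol-3-phosphate acyltransferase (Gpam in the outer mitochondrial membrane, Gpat4 in the endoplasmic reticulum) adds a fatty acid to give lysophosphatidate, and a lysophosphatidate acyltransferase (the Agpat enzymes) adds another to give phosphatidate. A lipin removes the phosphate to leave diacylglycerol, and a diacylglycerol acyltransferase (Dgat1 or Dgat2) attaches the last fatty acid. Mogat1 reaches diacylglycerol by another route, from monoacylglycerol. Phosphatidate and diacylglycerol are also the branch points from which membrane phospholipids are made.

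Of the 9 member genes that could be tested, 4 were higher in the limonin livers and 0 were lower. Of all genes tested, 25.9% were called in either direction, 7.24% higher and 18.7% lower. The 4 were Agpat2, Agpat3, Gpam and Dgat2, which cover both acylations that lead to phosphatidate and the last step. Their mean FPKM with limonin was 1.41, 1.21, 1.48 and 1.24 times that of the MCD group. None of the lipin genes was called, and Dgat1 and Gpat4 were not called either. The groups were compared with limma on log2(FPKM + 1) over the 10489 genes that reached 1 FPKM in 5 or more libraries. A gene was called at a Benjamini-Hochberg adjusted p under 0.05 over all of these. The median log2 fold change was 0.26 over the 9 tested members and -0.07 over all tested genes. With 1 library left out, the number of members called higher ranged from 1 to 4, and Agpat2 was called in all 11 such fits.

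**Figure D1:**
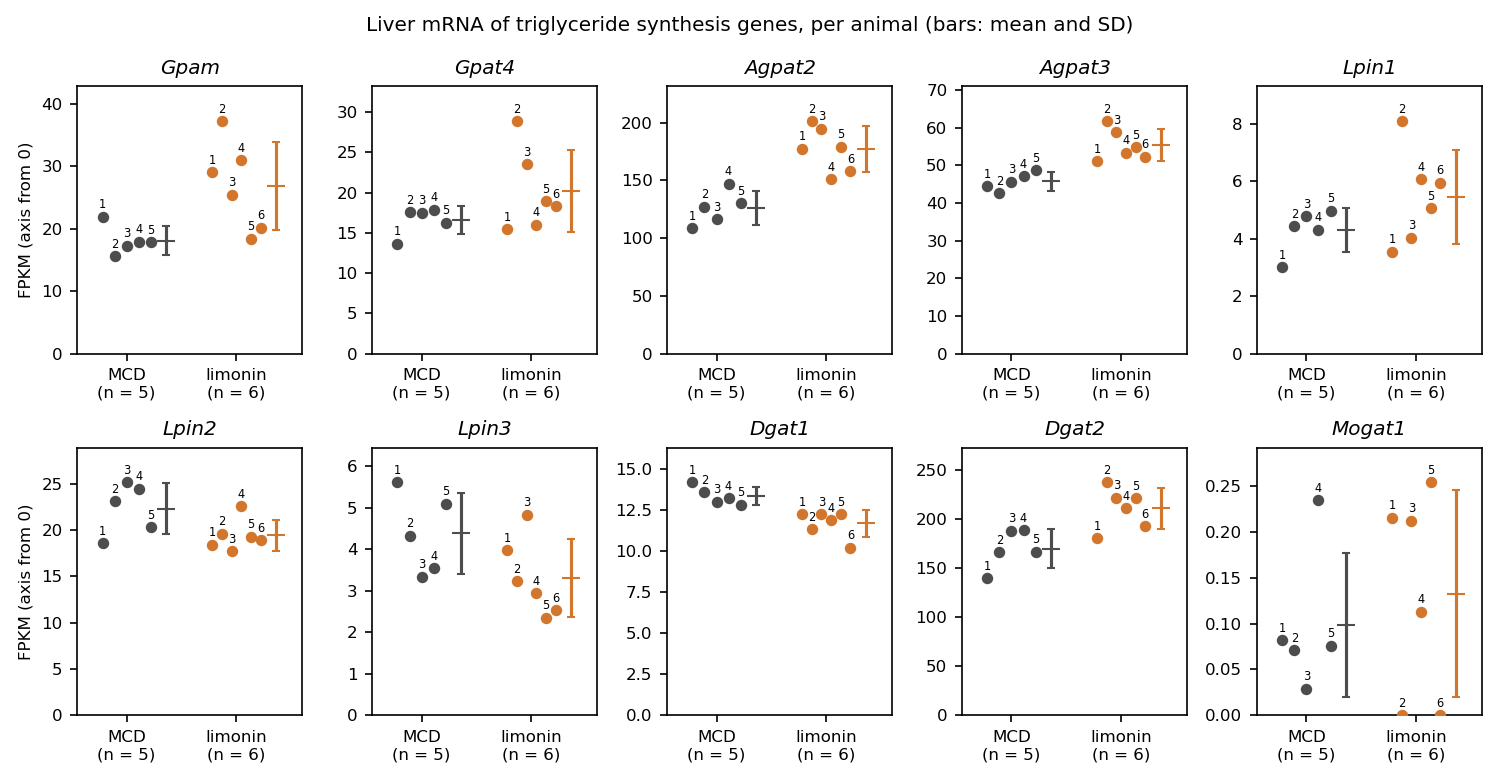
FPKM of the 10 triglyceride synthesis genes in each library (points, numbered by replicate) of the MCD group (5) and the limonin group (6), with mean and SD at the side; every axis starts at 0 and has its own scale. Agpat2 and Agpat3 lie higher in all 6 limonin libraries than in any MCD library, Dgat1 lies lower in all 6, and the other genes overlap. Where the title says animal, a library is meant.

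The order of levels was the same at the top in all 11 libraries, with Dgat2 first, then Agpat2, then Agpat3. Mean levels in the MCD group were 169.5 FPKM for Dgat2, 125.8 for Agpat2 and 45.7 for Agpat3. Lpin2 (22.3), Gpam (18.1), Gpat4 (16.6) and Dgat1 (13.4) followed. The ranges of Gpam and Gpat4 overlapped with each other, and so did those of Lpin1 and Lpin3, at 4.30 and 4.38 FPKM on average. Mogat1 was last in every library. With limonin, Gpam had a higher mean (26.9 FPKM) than Lpin2 (19.4 FPKM), the reverse of their order in the MCD group, but their ranges overlapped in the limonin group.

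The stretches before the gene starts of called members are shown because these are the members whose levels differed between the groups by the test. RefSeq promoter entries (build GRCm38.p6) matched 7 of the 10 members, and among the called members those of Gpam (2 starts), Agpat2 and Agpat3. Bases of annotated exons were left out, so fewer than 250 bases are shown for some. The sequences run 5′ to 3′ on the gene's strand, which is the minus strand for all, with motif matches in capitals. They lie at chr2:26604418-26604667 (Agpat2), chr10:78351712-78351802 (Agpat3), chr19:55127320-55127488 (Gpam, outer start) and chr19:55099478-55099727 (Gpam, inner start). The Agpat3 stretch precedes a start at 78351700, which lies inside the gene, whose outer end on the minus strand is at 78352489.
Agpat2: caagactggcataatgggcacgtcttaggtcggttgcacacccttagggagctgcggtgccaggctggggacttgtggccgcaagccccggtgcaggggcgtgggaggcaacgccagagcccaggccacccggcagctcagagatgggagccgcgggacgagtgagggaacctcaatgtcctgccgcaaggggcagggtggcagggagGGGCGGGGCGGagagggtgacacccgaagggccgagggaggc
Agpat3: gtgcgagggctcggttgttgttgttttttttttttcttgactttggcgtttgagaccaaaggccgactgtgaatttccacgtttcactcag
Gpam, outer start: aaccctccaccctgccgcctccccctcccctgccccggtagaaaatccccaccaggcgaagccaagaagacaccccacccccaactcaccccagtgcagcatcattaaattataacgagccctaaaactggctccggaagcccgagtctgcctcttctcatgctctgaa
Gpam, inner start: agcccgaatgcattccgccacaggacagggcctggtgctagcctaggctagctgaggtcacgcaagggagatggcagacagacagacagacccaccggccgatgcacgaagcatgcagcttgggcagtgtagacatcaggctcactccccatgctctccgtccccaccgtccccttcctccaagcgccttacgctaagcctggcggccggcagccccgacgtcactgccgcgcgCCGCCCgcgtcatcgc

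Motifs were searched on both strands of the 250 bases before each start, exons included. They were the sterol regulatory element (TCACNCCAC), the E-box (CACGTG), the CCAAT box (CCAAT), the GC box (GGGCGG) and the direct repeat 1 of nuclear receptors (AGGTCA, any base, AGGTCA). Agpat2 held the GC box at bases 42 to 37 and again at bases 37 to 32 before its start, so the matches share 1 base. The inner start of Gpam held 1 GC box at bases 16 to 11. The outer start of Gpam held 1 CCAAT box at bases 74 to 70, in an exon that is not shown. No searched motif was found in the window of the Agpat3 start, which lies inside the gene, and the outer end of Agpat3 was not searched. Of all 32851 promoter entries, 32.7% held a GC box, 33.8% a CCAAT box, 6.02% an E-box, 1.05% the sterol regulatory element and 0.0335% the direct repeat. Lpin2 and Lpin3, which were not called, also held GC boxes before a start, and Lpin2 held an E-box and CCAAT boxes as well. A match describes letters in a window and was not tied to any factor or to the changes in expression.

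Gpam, the mitochondrial glycerol-3-phosphate acyltransferase (chromosome 19, 55067268 to 55127238, GRCm38), rose with limonin, but unevenly between libraries. Its level was 21.9, 15.6, 17.3, 17.9 and 17.8 FPKM in MCD 1 to 5. With limonin it was 29.0, 37.3, 25.4, 31.0, 18.4 and 20.2 FPKM in libraries 1 to 6. Limonin 1 to 4 lay above every MCD library, while limonin 5 and 6 lay within the MCD range. The mean was 18.1 ± 2.34 FPKM (SD, n = 5) in MCD and 26.9 ± 7.04 (SD, n = 6) with limonin. This is a log2 fold change of 0.51 ± 0.16 (SE; limma adjusted p = 0.0312). The call was lost without any 1 of MCD 2, MCD 3, MCD 5, limonin 1, limonin 2 or limonin 4. The largest of these adjusted p, without MCD 2, was 0.0876. Without both limonin 5 and 6 the log2 fold change was 0.73 (adjusted p = 0.0057). These libraries held the lowest Gpam values of the limonin group, so leaving them out had to raise the fold change, and no conclusion is drawn from it.

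Long and short transcripts did not keep the same balance in every library. The median log2 deviation from each gene's mean over the 11 libraries was taken in genes with a longest transcript of at least 4202 bases and in genes of at most 1677 bases. Long minus short, it ran from -0.126 to -0.0116 in MCD. It ran from -0.216 to 0.325 with limonin, where limonin 5 was lowest and limonin 2 highest. Gpam has a longest transcript of 6172 bases in GENCODE M21 and was likewise lowest in limonin 5 and highest in limonin 2 within that group. With smooth trends on length and GC content removed from each library, an alternative chosen after seeing the data, its log2 fold change was 0.50 (adjusted p = 0.0137).

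Gpat4, the glycerol-3-phosphate acyltransferase of the endoplasmic reticulum (chromosome 8, 23171265 to 23208346), was not called. It was measured at 13.6, 17.6, 17.5, 17.9 and 16.3 FPKM in MCD 1 to 5 and at 15.5, 28.9, 23.5, 16.0, 19.0 and 18.3 FPKM in limonin 1 to 6. Limonin 2 and 3 stood well above the other libraries, and limonin 1 and 4 lay within the MCD range. The log2 fold change was 0.24 ± 0.15 (adjusted p = 0.228), with an unadjusted 95% interval from -0.07 to 0.56. The ratio of Gpam to Gpat4 within a library does not depend on the scaling of libraries. It was 1.12 ± 0.285 in MCD and 1.38 ± 0.423 with limonin, a log2 difference of 0.28 (exact permutation test over 462 splits, two-sided, p = 0.249, adjusted over the 4 ratios tested p = 0.249). A difference between these enzymes in their response was thus not shown.

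Agpat2 was the member called under every alternative tried. It encodes the lysophosphatidate acyltransferase whose loss causes lipodystrophy (chromosome 2, 26593057 to 26604417). MCD 1 to 5 had 108.3, 127.0, 116.4, 147.2 and 130.4 FPKM, and limonin 1 to 6 had 177.3, 201.4, 194.6, 150.9, 179.1 and 158.1 FPKM. All 6 limonin libraries lay above all 5 MCD libraries, although limonin 4 exceeded MCD 4 by little. The mean rose from 125.8 ± 14.8 to 176.9 ± 19.7 FPKM (log2 fold change 0.49 ± 0.11, adjusted p = 0.00715). Across the 24 alternative fits its log2 fold change ran from 0.44 to 0.78 and it was called in every one of them (largest adjusted p 0.0400). The value of 0.78 came with length and GC trends removed, and Agpat2 has a longest transcript of 1489 bases. Exons of Agpat2 share 64 bases with Egfl7 on the opposite strand, and the sources used here do not say whether strand was used in counting. Egfl7 reached at most 18.9 FPKM in any library.

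Agpat3, another lysophosphatidate acyltransferase (chromosome 10, 78269178 to 78352489), rose by less but with little spread between libraries. Its values were 44.4, 42.5, 45.6, 47.2 and 48.7 FPKM in MCD 1 to 5 and 51.0, 61.8, 58.9, 53.3, 54.8 and 52.3 FPKM in limonin 1 to 6. Again the groups did not overlap. Among all tested genes, 2.97% had every limonin library above every MCD library. The mean rose from 45.7 ± 2.40 to 55.4 ± 4.14 FPKM (log2 fold change 0.27 ± 0.08, adjusted p = 0.0306). The call was lost without MCD 1, MCD 2, MCD 3 or limonin 2, with a largest adjusted p of 0.0902 (without MCD 2). With no filter on low genes the adjusted p was 0.0535, and with length and GC trends removed the log2 fold change was 0.41 (adjusted p = 0.00662).

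The Agpat family did not move as one. Agpat1, a ubiquitous lysophosphatidate acyltransferase, fell from 8.97 ± 2.06 to 5.39 ± 1.08 FPKM (log2 fold change -0.63 ± 0.14, adjusted p = 0.00817). Agpat4 fell from 1.54 ± 0.243 to 0.597 ± 0.173 FPKM (log2 fold change -0.67 ± 0.10, adjusted p = 0.00165). Agpat5 was not called, at 0.03 ± 0.09. The fall of Agpat1 was not called after removal of length and GC trends (-0.35, adjusted p = 0.0684), while that of Agpat4 was (-0.48, adjusted p = 0.00243). Agpat1 and Agpat4 were minor, and the summed level of Agpat1 to Agpat5 went from 183.4 ± 15.0 FPKM in MCD to 239.6 ± 22.7 FPKM with limonin. Agpat2 made up 68.5% ± 2.53 of that sum in MCD and 73.7% ± 1.56 with limonin, and Agpat1 made up 4.95% ± 1.37 and 2.28% ± 0.537. These shares were not tested. The ratio of Agpat2 to Agpat3 was 2.75 ± 0.290 in MCD and 3.19 ± 0.229 with limonin, and limonin 1, 2, 3 and 5 exceeded the whole MCD range. Its log2 difference was 0.22 (exact permutation test, two-sided, p = 0.0260, adjusted p = 0.0346), and 3 of the 11 tests without 1 library kept an adjusted p under 0.05 (range 0.0286 to 0.0762). It was not under 0.05 without MCD 1, 3 or 5 or limonin 1, 2, 3, 5 or 6.

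**Figure D2:**
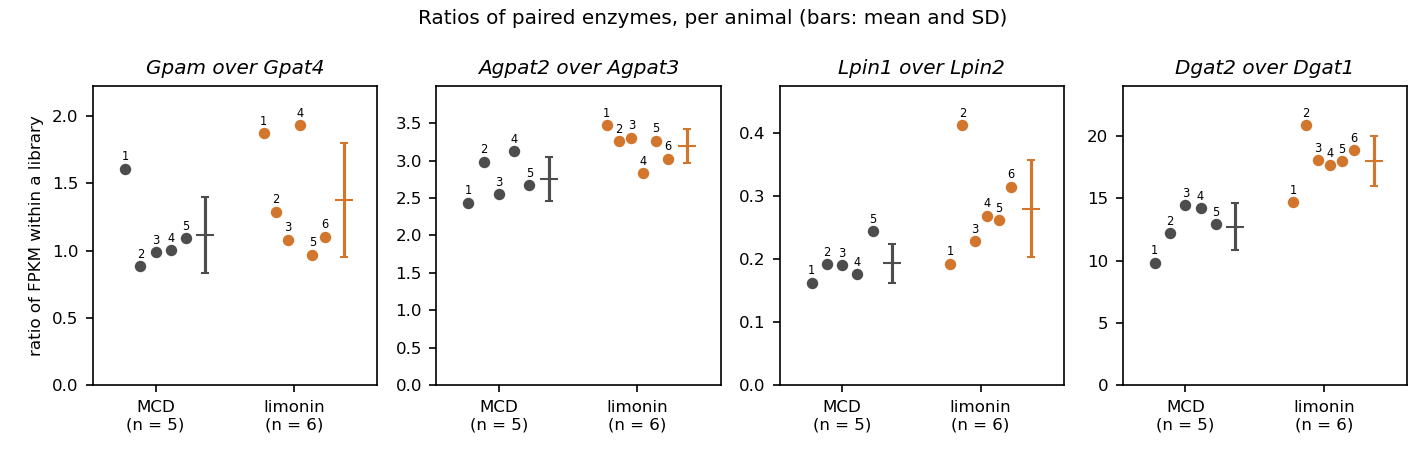
Ratio of FPKM of paired enzymes within each library (points, numbered by replicate), with mean and SD at the side, for 5 MCD and 6 limonin libraries; axes start at 0. For Dgat2 over Dgat1 all 6 limonin libraries lie above all 5 MCD libraries, and the ranges of the other ratios overlap. Where the title says animal, a library is meant.

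The lipins, the phosphatidate phosphatases that commit phosphatidate to diacylglycerol, were not called in either direction. Lpin2, the main lipin of liver by level here (chromosome 17, 71182560 to 71249817), had 18.6, 23.1, 25.2, 24.5 and 20.3 FPKM in MCD 1 to 5. With limonin it had 18.4, 19.6, 17.7, 22.6, 19.3 and 18.9 FPKM in libraries 1 to 6. The groups overlapped: MCD 1 lay under limonin 2, 4, 5 and 6, and limonin 4 also lay above MCD 5. The log2 fold change was -0.19 ± 0.10 (adjusted p = 0.173), with an unadjusted 95% interval from -0.40 to 0.02.

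Lpin1, a lipin that also acts as a transcriptional coactivator (chromosome 12, 16535669 to 16610966), was low and variable. It had 3.02, 4.43, 4.79, 4.31 and 4.97 FPKM in MCD 1 to 5 and 3.55, 8.10, 4.04, 6.06, 5.05 and 5.95 FPKM in limonin 1 to 6. Limonin 2 was the highest library and MCD 1 the lowest, and limonin 1 and 3 lay within the MCD range. The log2 fold change was 0.26 ± 0.17 (adjusted p = 0.264), with an unadjusted 95% interval from -0.10 to 0.62. Lpin3 (chromosome 2, 160880670 to 160906002) had 5.61, 4.32, 3.34, 3.55 and 5.09 FPKM in MCD and 3.97, 3.23, 4.83, 2.94, 2.35 and 2.53 FPKM with limonin. Limonin 3 was the highest of its group, the other limonin values reached up to 3.97 FPKM, and 4 of 6 lay below every MCD library. The log2 fold change of Lpin3 was -0.33 ± 0.16 (adjusted p = 0.133), and without limonin 3 it was -0.42 with an adjusted p of 0.0481.

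Although neither gene was called alone, the balance of Lpin1 and Lpin2 differed between the groups. The ratio of Lpin1 to Lpin2 was 0.193 ± 0.0312 in MCD and 0.280 ± 0.0769 with limonin, a log2 difference of 0.51 (exact permutation test, two-sided, p = 0.0260, adjusted p = 0.0346). Of 6 limonin libraries 4 lay above every MCD library. In the tests without 1 library the adjusted p ran from 0.0317 to 0.0762, and 3 of 11 stayed under 0.05. Those that did not left out MCD 1, 2, 3 or 4 or limonin 2, 4, 5 or 6. Summed over Lpin1 to Lpin3, the level was 31.0 ± 2.37 FPKM in MCD and 28.2 ± 2.44 FPKM with limonin, and Lpin2 made up 71.8% ± 4.07 and 69.0% ± 3.40 of it. The sum and the shares were not tested.

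At the last step Dgat2 was called higher and Dgat1 was not called. Dgat2, the diacylglycerol acyltransferase linked to newly made fatty acids (chromosome 7, 99153658 to 99182719), had 139.5, 166.0, 187.9, 188.0 and 166.3 FPKM in MCD 1 to 5. With limonin it had 180.0, 236.9, 221.5, 210.5, 220.6 and 192.4 FPKM in libraries 1 to 6. Of the limonin libraries 5 lay above every MCD library and limonin 1 lay within the MCD range. The mean rose from 169.5 ± 20.02 to 210.3 ± 20.9 FPKM (log2 fold change 0.31 ± 0.11, adjusted p = 0.0469), close to the threshold. The call held in 2 of the 11 fits without 1 library, those without MCD 4 or limonin 1. It was lost without any of the other libraries, with a largest adjusted p of 0.123 (without MCD 1). After removal of length and GC trends the log2 fold change was 0.55 (adjusted p = 0.00738).

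Dgat1, the diacylglycerol acyltransferase linked to fatty acids taken up or re-esterified (chromosome 15, 76502015 to 76511953), had 14.2, 13.6, 13.0, 13.2 and 12.8 FPKM in MCD 1 to 5. With limonin it had 12.2, 11.3, 12.3, 11.9, 12.3 and 10.2 FPKM in libraries 1 to 6. Every limonin value was under the lowest MCD value, a pattern shared by 8.33% of all tested genes, so 1 of 9 members is close to that background. The difference was small, from 13.4 ± 0.537 to 11.7 ± 0.816 FPKM, and was not called. Its log2 fold change was -0.18 ± 0.08 (adjusted p = 0.110), with an unadjusted 95% interval from -0.35 to -0.01. After removal of length and GC trends its sign turned, to 0.070 (adjusted p = 0.465).

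The ratio of Dgat2 to Dgat1 separated the groups. It was 9.83, 12.2, 14.4, 14.2 and 12.9 in MCD 1 to 5 and 14.7, 20.9, 18.1, 17.7, 18.0 and 18.9 in limonin 1 to 6. Limonin 1, the lowest of its group, lay just above MCD 3, the highest of the MCD group. The log2 difference was 0.51 (exact permutation test, two-sided, p = 0.00433, adjusted over the 4 ratios p = 0.0173). The adjusted p stayed between 0.0190 and 0.0317 in all 11 tests without 1 library. Dgat2 made up 92.6% ± 1.12 of the summed FPKM of both genes in MCD and 94.7% ± 0.594 with limonin, so Dgat1 was the minor transcript in every library.

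Mogat1, which acylates monoacylglycerol (chromosome 1, 78510991 to 78538173), was close to the bottom of the measured range. It was listed at 0.0817, 0.0713, 0.0289, 0.235 and 0.0759 FPKM in MCD 1 to 5 and at 0.216, 0, 0.212, 0.113, 0.254 and 0 FPKM in limonin 1 to 6. It did not reach 1 FPKM in any library and was not tested. The related gene Mogat2 had 7.93 FPKM in MCD and 7.71 FPKM with limonin on average and was not called, with a log2 fold change of -0.03 ± 0.15.

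**Figure D3:**
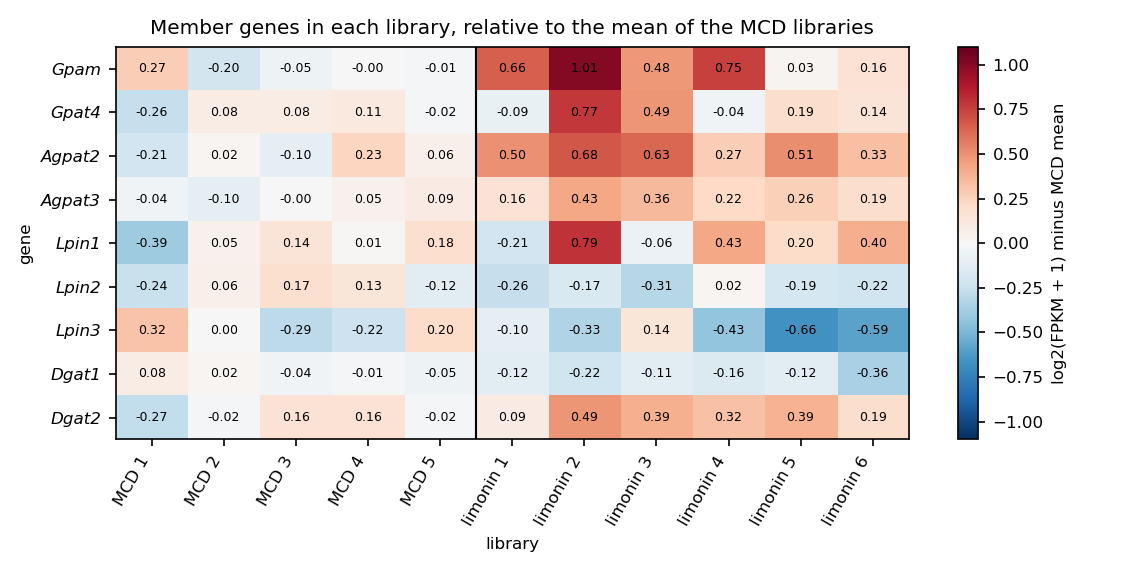
Difference of log2(FPKM + 1) in each library from the mean of the 5 MCD libraries, for the 9 tested member genes (rows) and 11 libraries (columns, MCD left of the line). Agpat2, Agpat3, Gpam and Dgat2 are positive in all 6 limonin libraries, with limonin 2 highest, and Dgat1 is negative in all 6.

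Limonin 2 gave the highest value of 6 of the 10 genes, Gpam, Gpat4, Agpat2, Agpat3, Lpin1 and Dgat2. It also had the smallest summed FPKM over all genes, 404050 FPKM against 412782 to 462665 in the other limonin libraries and 464184 to 471623 in MCD. Without limonin 2 the log2 fold changes of Agpat2, Agpat3, Gpam and Dgat2 were 0.45, 0.24, 0.42 and 0.28, and Agpat2 was the member still called. With every library scaled to equal summed FPKM, an alternative chosen after seeing the data, the same 4 members were called, at 0.61, 0.39, 0.63 and 0.43. Over all genes, 27.9% of the calls were in the direction of higher expression. That share was 48.1% with median-ratio scaling, 52.9% with quantile normalization, 49.6% with equal sums and 54.6% without the length and GC trends. The median log2 fold change of all tested genes, -0.07 as deposited, was 0.01, 0.03, 0.03 and 0.01 in these fits.

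**Figure D4:**
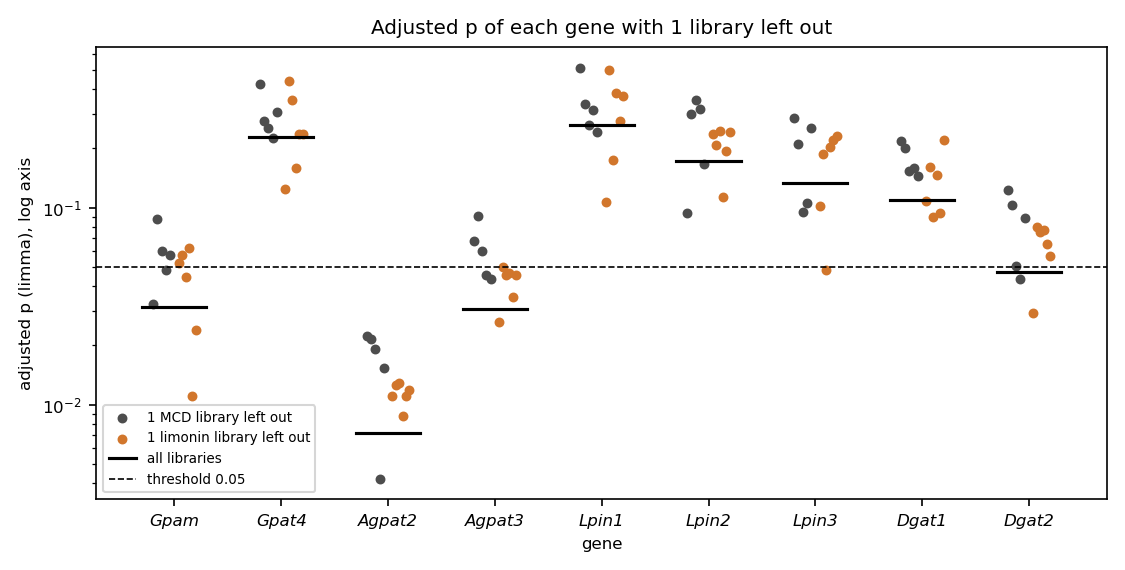
Adjusted p (limma, logarithmic axis) of the 9 tested member genes with each of the 11 libraries left out in turn (points, by the group of the library left out), with the value from all libraries as a black line and the threshold of 0.05 dashed. All points of Agpat2 lie under the threshold, while those of Gpam, Agpat3 and Dgat2 fall on both sides of it.

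Of 38 other genes around the pathway, 34 were tested, 10 rose, 5 fell and 19 were not called, with a median log2 fold change of 0.08. Over all tested genes 7.24% were called higher and 18.7% lower, so the count that fell is near that background. Of 4 genes that make or use up glycerol-3-phosphate 3 rose. Gpd2, the mitochondrial dehydrogenase that oxidizes glycerol-3-phosphate and so consumes it, rose from 4.03 ± 0.231 to 6.66 ± 1.12 FPKM (log2 fold change 0.60 ± 0.11, adjusted p = 0.00277). Gpd1, the cytosolic dehydrogenase that can form it, rose from 108.4 ± 11.5 to 152.4 ± 36.6 FPKM (0.46 ± 0.15, adjusted p = 0.0363), and the related Gpd1l rose by 0.39 ± 0.12. With 1 library left out, the call of Gpd1 held without MCD 4, MCD 5, limonin 1, limonin 4 or limonin 5 and was lost without any other (largest adjusted p 0.0975, without MCD 2). That of Gpd1l held without MCD 3, MCD 4, limonin 1, limonin 4 or limonin 5 and was lost without any other (largest adjusted p 0.0910, without MCD 2). Gk, the glycerol kinase that forms it from glycerol, was not called, at 0.07 ± 0.19.

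Among acyl-CoA synthetases, which activate fatty acids, 2 of 4 tested rose, against 7.24% called higher over all tested genes. Acsl1 rose from 20.8 ± 3.52 to 37.6 ± 8.96 FPKM, at a log2 fold change of 0.81 ± 0.15 (adjusted p = 0.00286), and Acsl5 rose by 0.48 ± 0.11. Acsl3 and Acsl4 were not called, at 0.29 ± 0.16 and 0.23 ± 0.20. Of 8 other acyltransferases 1 rose and 3 fell, against 7.24% higher and 18.7% lower over all tested genes. The riser was Lclat1, a lysocardiolipin acyltransferase, at 0.45 ± 0.10, and the 3 that fell were Agpat1, Agpat4 and Gpat2, a low glycerol-3-phosphate acyltransferase gene, at -0.50 ± 0.12. With a pseudocount of 0.01 in place of 1 the log2 fold changes of Agpat4 and Gpat2, both low genes, were -1.39 and -0.89. Gpat2 lost its call after removal of length and GC trends (adjusted p = 0.0923). Gpat3 was not called, at -0.23 ± 0.18.

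Of 5 lipin regulators and membrane phosphatidate phosphatases 2 rose, against 7.24% of all tested genes. Plpp3, a lipid phosphate phosphatase of the cell surface, rose from 18.6 ± 1.62 to 34.7 ± 8.64 FPKM (log2 fold change 0.84 ± 0.14, adjusted p = 0.0022), and its 6 limonin values all exceeded those of MCD. Plpp1 rose by 0.31 ± 0.10, a call that held without MCD 5 or limonin 1, 2 or 3 and was lost without any other library (largest adjusted p 0.111, without MCD 1). Ctdnep1 and Cnep1r1, which form the phosphatase that acts on lipins, were not called, at -0.10 ± 0.09 and -0.03 ± 0.12. Of 8 tested genes around the step from diacylglycerol to phospholipid, some of which act on the head group instead, 2 rose and 2 fell. Over all tested genes 7.24% were called higher and 18.7% lower, so the 2 that fell are near that background. Chpt1, a cholinephosphotransferase, rose from 6.56 ± 1.09 to 11.3 ± 2.39 FPKM (0.69 ± 0.14, adjusted p = 0.00482), and Selenoi, an ethanolaminephosphotransferase, rose by 0.35 ± 0.12. The call of Selenoi held without limonin 5 and was lost without any other library (largest adjusted p 0.122, without MCD 2). The choline kinase gene Chkb and the ethanolamine branch gene Pcyt2 both fell by 0.37 ± 0.12. The call of Chkb held without MCD 1, MCD 3, limonin 1 or limonin 5 (largest adjusted p 0.105, without MCD 2). That of Pcyt2 held without MCD 5, limonin 1, limonin 4 or limonin 5 (largest adjusted p 0.0919, without MCD 2), and both were lost without any of the other libraries. With length and GC trends removed, Chkb was at -0.14 (adjusted p = 0.476) and Pcyt2 at -0.08 (adjusted p = 0.638), both not called. None of the 5 tested genes of the branch from phosphatidate through CDP-diacylglycerol was called (range -0.11 to 0.23). In that branch Cds2, which makes CDP-diacylglycerol, was at 0.23 ± 0.10, and Cds1 and Tamm41 were not tested.

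**Figure D5:**
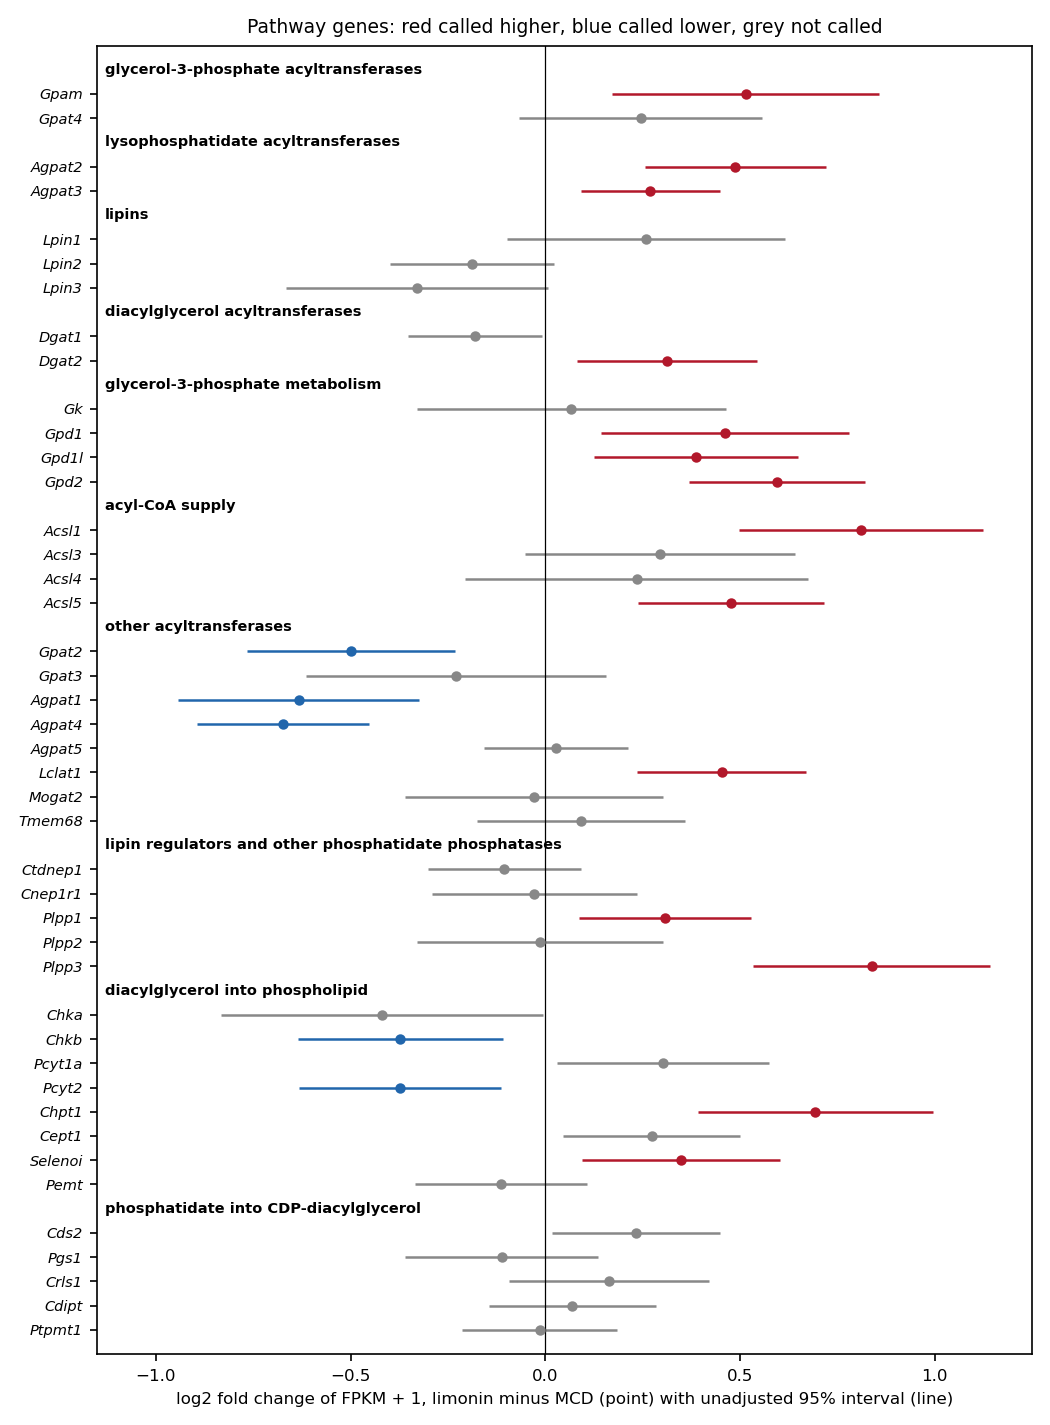
Log2 fold change of FPKM + 1 (limonin minus MCD, points) with unadjusted 95% intervals (lines) for the 9 tested members and 34 tested genes around the pathway, grouped by step. Members called higher are Gpam, Agpat2, Agpat3 and Dgat2, and the genes called lower (blue) are Gpat2, Agpat1, Agpat4, Chkb and Pcyt2.

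Marker genes of liver cell types moved between the groups as well. In whole liver, more cells of a type and more RNA per cell cannot be told apart. The background for the counts per cell type is 7.24% of all tested genes called higher and 18.7% lower. Of 10 hepatocyte markers 3 rose and 0 fell, with a median log2 fold change of 0.23, and their summed level was 31210.1 to 38842 FPKM in MCD and 32958 to 50328 FPKM with limonin. Of 10 stellate cell and fibroblast markers 9 fell, and their sum was 82.2 to 161.3 FPKM in MCD and 51.7 to 77.3 FPKM with limonin. All 5 tested cholangiocyte markers of 8 listed fell (sums 23.0 to 56.8 and 11.9 to 24.6 FPKM). Kupffer cell and macrophage markers fell in 5 of 9 tested of 10 listed (sums 129.7 to 413.7 and 90.4 to 145.7 FPKM). Those that fell were Cd68, C1qa, C1qb, Csf1r and Trem2, while Adgre1, Clec4f, Vsig4 and Marco were not called. Endothelial markers gave 1 higher and 1 lower of 8, both near the background (sums 35.0 to 68.7 and 37.7 to 52.7 FPKM). Of 8 lymphocyte markers 1 was tested and fell (sums 2.42 to 6.64 and 1.59 to 2.81 FPKM). The part of these cell types in the changes of the triglyceride genes was not tested. Adipocyte markers, of a cell type that also expresses Agpat2 and Dgat2, summed to 0.821 to 1.40 FPKM in MCD and 0.307 to 1.48 FPKM with limonin over the 7 genes found. Pancreatic acinar markers summed to 5.61 to 11.8 and 4.08 to 12.4 FPKM over 7 genes found, of which 1 was tested and not called. That gene, Cela1, had the highest mean of them, at 6.19 FPKM in MCD and 5.61 FPKM with limonin. Ctrb1 reached at most 3.64 FPKM, and Cpa1, Pnlip, Amy2a5, Cel and Cela3b stayed under 1 FPKM in every library. No marker found in the table was at 0 in every library.

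In the authors' deposited table the same 4 members had an adjusted p under 0.05, as did 8.57% of all 31280 genes in the direction of higher expression. Many of the 31280 are low genes. Among the 10489 genes that passed the filter used here, 1844 had such a q-value in that direction. The authors' deposited table gives log2 ratios of 0.49 for Agpat2, 0.57 for Gpam, 0.28 for Agpat3 and 0.31 for Dgat2, with q-values of 0.000105, 0.000629, 0.00278 and 0.0139. None of the 10 is marked as significant in the authors' deposited table, where their ratios of means run from 0.755 to 1.48.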

How the data were processed

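Liver mRNA was sequenced in 11 libraries of 2 groups, MCD (5) and limonin (6). The submitters' processing notes name cutadapt 1.9, HISAT2 2.0.4 and StringTie 1.3.4d. They also name the human build GRCh38, while the table carries mouse gene identifiers. The authors deposited FPKM for each gene in each library. According to the column names, per the file headers, they also give a fold ratio of the group means, the log2 of that ratio, a p-value and a q-value, from a test that no source used here names. FPKM keep no fragment counts, so no count model was fitted and no counting interval is given.

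FPKM were transformed to log2(FPKM + 1), which understates the change of low genes. A gene was kept at 1 FPKM or more in 5 or more libraries, which left 10489 of 31280, and these were fitted with a two-sided limma test (limma 3.58.1, R 4.3.3, with trend and robust set), adjusted by Benjamini-Hochberg over all of them. Of the 10 members 9 passed; Mogat1 did not. Values are mean ± SD of FPKM and log2 fold change (limonin minus MCD) ± SE. P-values measure the spread between these libraries, which may be technical in part. The procedure was tested on simulated data. Ratios of paired enzymes were compared by exact permutation of the libraries; the planned ratio of Mogat1 to Dgat2 was not tested because Mogat1 was 0 in some libraries. Gene positions are from GENCODE M21 (GRCm38), promoters from RefSeq (GRCm38.p6). Members, lists, ratios and tests were chosen with earlier results of these data known. All members are named, and every called gene of the list around the pathway. Alternatives were other filters, pseudocounts, scalings and variance models, weights, a block, left-out libraries, the authors' q-values and, chosen after seeing the data, equal summed FPKM and removal of length and GC trends.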

Additional observations from a re-analysis of the deposited data

Results flagged for a closer look

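Among 28 sets of values checked for a single distant library (10 genes and 4 ratios in each group), 2 held one, and chance alone gives about 1 in 20. The level of Mogat1 in MCD 4 was 0.235 FPKM, while the other MCD libraries lay between 0.0289 and 0.0817 FPKM; all are far under 1 FPKM. The ratio of Gpam to Gpat4 in MCD 1 was 1.61, while the other MCD libraries lay between 0.886 and 1.09. MCD 1 had both the highest Gpam and the lowest Gpat4 of its group.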

How the results depend on the processing

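Agpat2 was called in all 24 alternative fits, Gpam in 16, Agpat3 in 17 and Dgat2 in 10, and each of the 4 stayed positive in all of them; Gpat4, Lpin1, Lpin2 and Dgat1 were called in none. Dgat1 was the member that changed sign, to 0.070 after removal of length and GC trends; the cause was not tested. The members called higher numbered 1 with no filter, 1 without both MCD 4 and 5, and 2 with the replicate block; with 1 library left out they numbered 1 to 4, and those called lower 0 to 1. Genes around the pathway called higher numbered 6 with no filter and 5 with the replicate block, and 6 to 11 with 1 library left out. Those called lower numbered 3 with a filter at 5 FPKM, after median-ratio scaling, with the replicate block, without both MCD 4 and 5 and with equal sums, 1 without the length and GC trends, and 3 to 5 with 1 library left out.

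Over the 10489 genes of the main fit, 759 were called higher and 1957 lower. Higher calls numbered 1470 after median-ratio scaling, 1813 after quantile normalization, 362 with the replicate block and 1347 without both limonin 5 and 6. They numbered 486 without both MCD 4 and 5 and 1622 without the length and GC trends. With 1 library left out they ran from 328 to 1097. Counted over all 31280 genes, higher calls numbered 412 with no filter and 2682 by q-value in the authors' deposited table. Among the 10489 genes of the main fit these 2 counts were 310 and 1844. Lower calls numbered 900 with a filter at 5 FPKM, where fewer genes were tested, 895 with the replicate block, 1112 at equal summed FPKM and 1080 to 2134 with 1 library left out.

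The log2 ratio of Agpat2 to Agpat3 was 0.23 (adjusted p = 0.0952) and that of Lpin1 to Lpin2 was 0.47 (adjusted p = 0.0952) in exact permutation tests without both limonin 5 and 6. With 1 library left out they ran from 0.17 to 0.26 and from 0.39 to 0.61. As differences within pairs of the same number (replicate block), the ratios of Agpat2 to Agpat3, Lpin1 to Lpin2 and Dgat2 to Dgat1 were 0.23, 0.46 and 0.49. The exact sign-flip test of 5 pairs cannot go below p = 0.0625, so it could not call them. The replicate numbers share no stated animal or day. The correlation of deviations between same-numbered libraries was 0.0761, -0.235, -0.169, 0.204 and -0.172, and 1 of 5 MCD libraries correlated best with its own number. The fragment depth is unknown, and with 5 and 6 libraries the unadjusted 95% intervals of uncalled members remained wide, reaching 0.56 for Gpat4 and 0.62 for Lpin1.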

Other observations

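Within groups, the members did not vary as one set. With each group's mean removed, Gpat4 had Pearson's r of 0.772 with Agpat3, 0.76 with Dgat2 and 0.719 with Agpat2 over the 11 libraries, while Gpam had 0.152 with Gpat4, 0.0586 with Agpat2 and -0.0387 with Dgat2. Lpin3 had -0.706 with Lpin2 and -0.532 with Lpin1. These values are descriptions over few libraries that share depth and scaling, with no test.

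The genes whose deviations were most like those of each called member, measured the same way over 11 libraries among all tested genes, were as follows. For Gpam they were Opa1 (r = 0.978), Iars2 (0.971) and Pdcd4 (0.968). For Agpat2 they were Smim7 (0.889), Tmem254b (0.886) and the pseudogene Itpa-ps1 (0.881). For Agpat3 they were Ormdl2 (0.945), Gm15459 (0.937) and Brap (0.935), and for Dgat2 they were Tmem120a (0.91), Map1lc3b (0.908) and Pdk2 (0.89). Picked as the highest among all tested genes over 11 libraries, these values were bound to be high, and no conclusion is drawn from them.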
